A study of Mus musculus with 6 samples.

Results

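The genes described here encode the gp130 cytokines LIF, CNTF and CLCF1 and the receptor chains of this cytokine family, 9 genes chosen by name from the 32285 genes in the count tables. The receptor genes were Il6st, Lifr, Cntfr, Osmr, Il6ra and Il11ra1, and the ligand genes were Lif, Cntf and Clcf1. Each symbol matched 1 gene identifier, and the rule that picks them uses no measured value, although the list was drawn up with earlier results of these data known.

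Retinal nuclei came from B6.CXB1-Pde6b-rd10/J mice, which carry the rd10 allele of Pde6b and lose their photoreceptors, so saline and IL-27 retinas were both degenerating and neither was a wild type. At P18 an eye received 20 ng recombinant IL-27 or saline by intravitreal injection, and the retina was frozen at P20. Each group had 3 libraries, labelled as replicates 1, 2 and 6 for saline and as replicates 4, 5 and 10 for IL-27. Whether a library is a single animal or a pool of retinas is not stated, so the tests measure the spread between these libraries. The comparison asks which retinal cell types carry the receptors for LIF, CNTF, OSM, IL-6 or IL-11 beside IL-27, and whether these genes differed 2 days after the injection.

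Cytokines of this family share gp130, the signalling chain encoded by Il6st, and pair it with chains that give each cytokine its target cells. LIFR joins gp130 for LIF, OSMR joins it for oncostatin M (OSM), and IL27RA joins it for IL-27. CNTF and CLCF1 need CNTFR, an anchored chain that recruits LIFR and gp130, whereas IL6RA and IL11RA recruit pairs of gp130. Receptor engagement activates Jak kinases and Stat3, and in the injured retina Lif from Muller glia is a known survival signal to photoreceptors.

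Osmr and Lifr lie near each other on chromosome 15, and in these data their levels ran across the cell types in different ways. In the GRCm38 annotation Osmr (chr15:6813577-6874969, minus strand) and Lifr (chr15:7090614-7197489, plus strand) were 215.645 kb apart with 1 annotated gene between them. The 250 bases before a RefSeq start of each (GRCm38.p6) and before the start of Lif are shown because Lif had its highest level in Muller glia, Lifr in rods, and Osmr a level in Muller glia far above that in neurons. Capitals mark the matches to 1 searched motif, the GC box GGGCGG in Osmr (where it lies on the other strand and reads as CCGCCC) and in Lifr, and the AP-1 motif TGANTCA in Lif.
Osmr, chr15:6874314-6874563, minus strand: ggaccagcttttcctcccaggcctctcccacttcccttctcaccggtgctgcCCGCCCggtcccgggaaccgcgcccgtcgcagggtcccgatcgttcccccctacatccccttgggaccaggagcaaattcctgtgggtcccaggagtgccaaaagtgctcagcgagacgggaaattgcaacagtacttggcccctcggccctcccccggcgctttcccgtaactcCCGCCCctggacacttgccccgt
Lifr, chr15:7129322-7129571, plus strand: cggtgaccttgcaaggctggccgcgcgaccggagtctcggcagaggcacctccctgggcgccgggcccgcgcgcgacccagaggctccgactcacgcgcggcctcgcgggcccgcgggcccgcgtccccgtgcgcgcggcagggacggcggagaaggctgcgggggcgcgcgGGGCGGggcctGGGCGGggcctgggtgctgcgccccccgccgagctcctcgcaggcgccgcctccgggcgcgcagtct
Lif, chr11:4257318-4257567, plus strand: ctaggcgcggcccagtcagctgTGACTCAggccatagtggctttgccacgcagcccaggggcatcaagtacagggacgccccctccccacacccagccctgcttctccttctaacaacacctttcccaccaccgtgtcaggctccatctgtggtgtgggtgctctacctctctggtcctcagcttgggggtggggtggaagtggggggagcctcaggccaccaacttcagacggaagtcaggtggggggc
The GC boxes began 198 and 23 bases before the Osmr start and 78 and 67 bases before the Lifr start, and the AP-1 match began 228 bases before the Lif start. Windows were found for 8 of the 9 genes, 15 windows in all because some genes have several starts. On both strands GGGCGG was in 7 of them against 32.7% of all 32851 promoter windows of this length, and TGANTCA was in 2 against 6.75%. The Stat motif TTCNNNGAA was in 0 of the 15 windows and in 7.02% of all windows, and the photoreceptor motif TAATCC was in 1 against 6.25%. These counts describe letters in the windows only, and windows of the same gene can overlap, as in Cntfr. The Lifr window that is not shown (chr15:7140292-7140541) held 0 GC boxes.

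The libraries held 36678332 to 48260748 UMIs, the counted RNA molecules. After the filters and the removal of 4103 doublets, 52102 nuclei remained, 8219 to 9158 per library with a median of 2783.5 to 3786 UMIs. Nuclei in 2 unnamed clusters (396) were left out. The named types kept for the sums held 14998 rods, 11691 AC, 10664 BC, 5417 Muller glia, 3321 cones, 2037 RGC, 1546 microglia, 484 HC, 293 astrocytes, 236 endothelial cells and 116 pericytes, each type carrying at least 3 of its marker genes. A total of 372 barcode sequences occurred in more than 1 library. Levels below are CPM, a gene's UMIs divided by all UMIs of the summed nuclei of a type in 1 library and scaled to a common total, and are given as mean ± SD over the 6 libraries. The nuclei of the smallest types give few UMIs, and a level there can rest on under 30 of them. In these sums fewer expressing nuclei and less RNA per nucleus cannot be told apart.

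**Figure D1:**
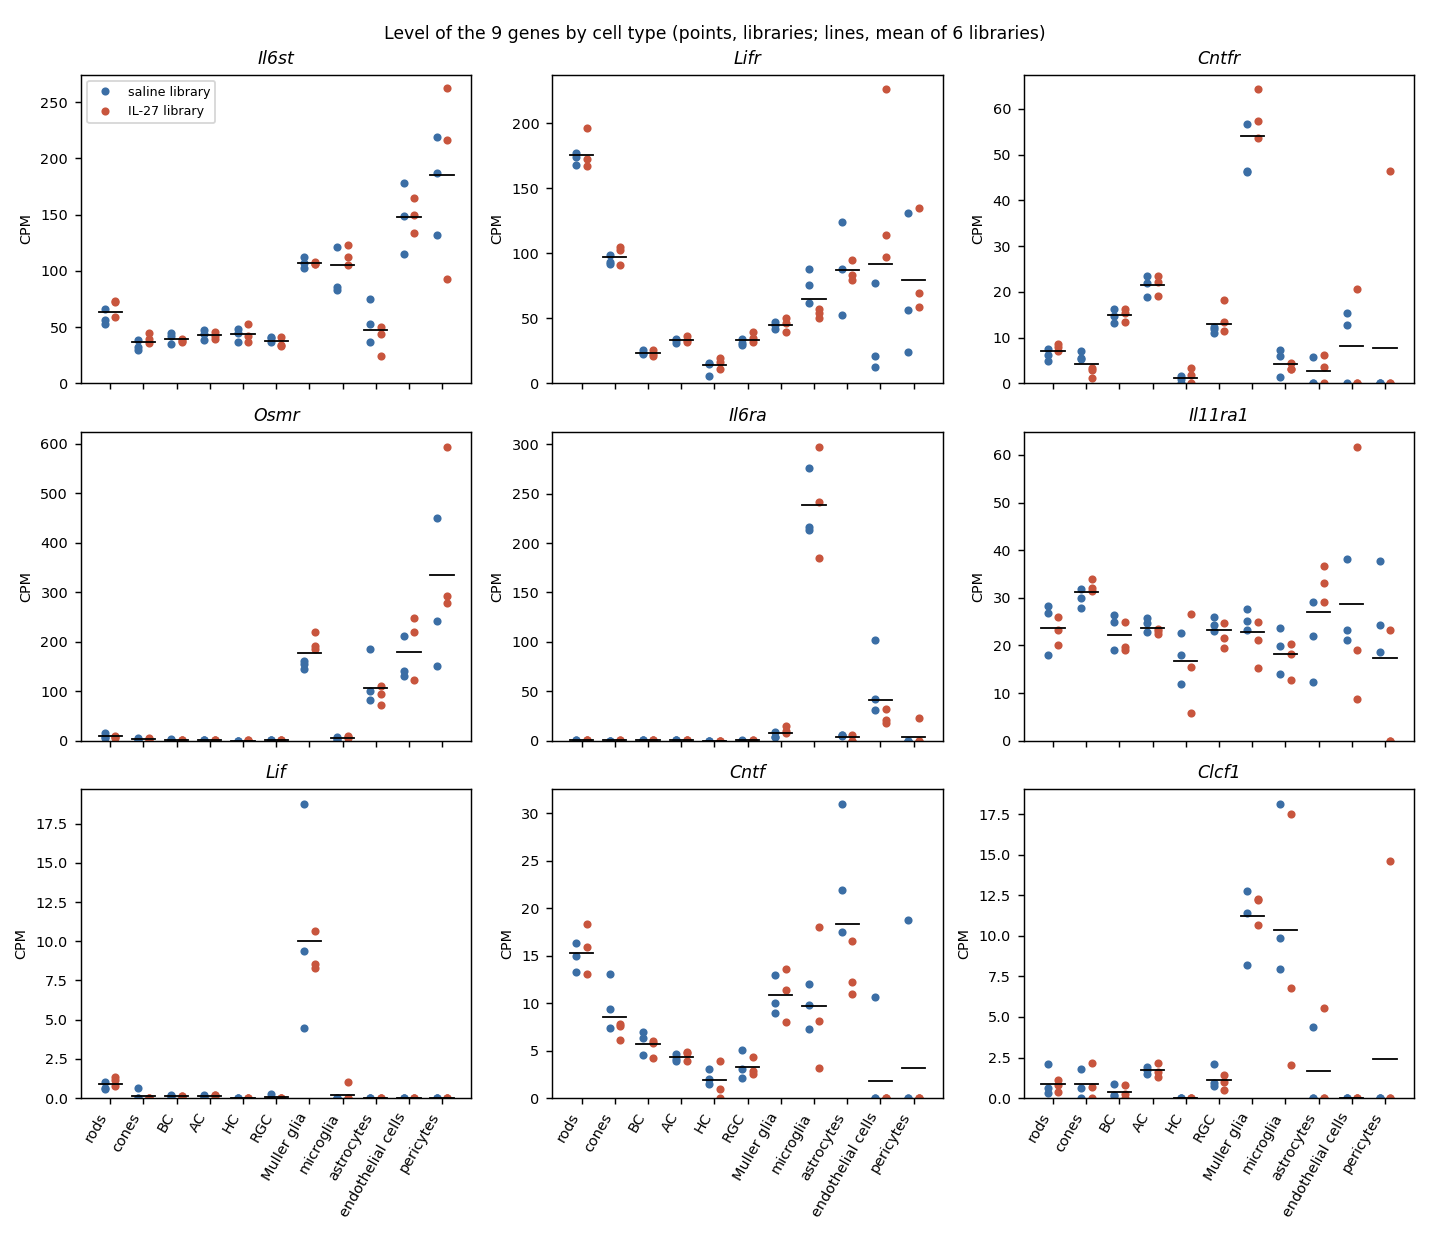
Level in CPM (linear axis from 0) of each of the 9 genes in 11 cell types, with 1 point per library (saline and IL-27 in different colours) and a line at the mean of 6 libraries. Lifr was highest in rods at 175.8 CPM, Osmr was high in Muller glia, astrocytes, endothelial cells and pericytes, Il6ra was high in microglia, and Il11ra1 was at a like level in most types.

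The common chain Il6st was found in every cell type. Its level was 185 ± 62.3 CPM in pericytes, 148.2 ± 22.4 in endothelial cells, 107 ± 3.2 in Muller glia and 105.2 ± 17.4 in microglia. Rods followed at 63.6 ± 8.4 CPM, below every Muller glia and microglia library, and cones, BC, AC, HC, RGC and astrocytes had means of 37 to 47.1 CPM with overlapping library values. The Muller glia level was 1.68 times the rod level. Its range of means over the types was narrower than that of Osmr or Il6ra.

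Lifr, the signalling partner of gp130 for LIF and part of the CNTF receptor, was highest in rods. Rods stood at 167.6, 177.1 and 174 CPM in the saline libraries and 167.3, 196.3 and 172.3 CPM in the IL-27 libraries. All 6 values lay above the highest cone value, and the mean rod level of 175.8 ± 10.8 CPM was 1.81 times that of cones (97.1 ± 5.9). Below cones came endothelial cells (91.5 ± 77.6), astrocytes (86.9 ± 23.2), pericytes (79.2 ± 44.4) and microglia (64.5 ± 14.4), which overlapped each other. The endothelial values ran from 12.7 to 226.4 CPM on 64 UMIs, so 1 of them lay above every rod library and others below Muller glia. By their means Muller glia (45 ± 3.8 CPM), RGC (33.6) and AC (33.3 ± 1.9) were lower, and BC (23.6 ± 1.8) and HC (13.9) were lowest. The rod level was 3.91 times the Muller glia level.

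Nuclei differ in depth, so each was also thinned to 1000 UMIs. At this depth 15.7% of rods had a Lifr UMI (95% exact Clopper-Pearson interval 15.1 to 16.4%), with 3703 shallower rods left out, against 20.5% before thinning. The thinned share was 8.77% in cones (7.82 to 9.79%), 4.63% in Muller glia (4.08 to 5.22%) and 1.45% in HC (0.583 to 2.96%). These intervals cover counting error only. Rod RNA released during nuclei preparation reaches other droplets, so the Lifr level was set beside 7 rod markers. In Muller glia Lifr reached 25.6% of its rod level while the rod markers reached 1.22 to 8.36% of theirs, and in BC, AC, HC, RGC, microglia, astrocytes, endothelial cells and pericytes Lifr also stood above all 7 markers. In cones it stood above 6 of 7.

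**Figure D2:**
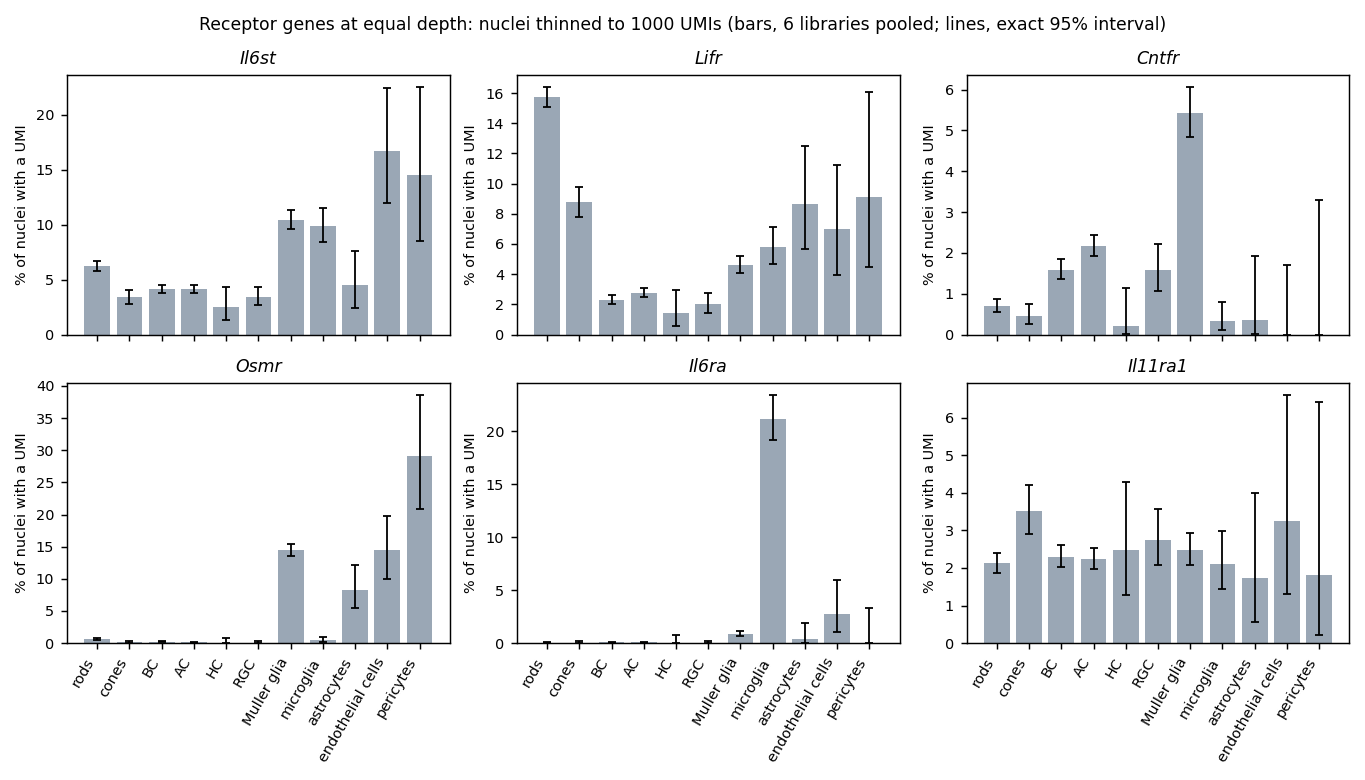
Share of nuclei (percent) with at least 1 UMI of each of 6 receptor genes after thinning to 1000 UMIs, by cell type, with the libraries pooled (bars) and exact 95% intervals (lines). The Lifr bar of rods stands at 15.7%, the Cntfr bar of Muller glia at 5.42%, the Osmr bar of pericytes at 29.1% and the Il6ra bar of microglia at 21.2%.

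Inside the neuron classes, Lifr was uneven. Among the 14 AC clusters it was highest in cluster 5 (1722 nuclei, leading genes Cyp2j8, Tlr4 and Elavl2) at 78.2 ± 11.9 CPM and lowest in cluster 28 at 10.3 CPM. Among the 10 BC clusters it was highest in cluster 25 (488 nuclei, leading genes Erbb4, Slit2 and Gsg1, with 3 of 5 markers of OFF bipolar cells) at 80.1 ± 5.2 CPM. The next BC cluster stood at 33.3 ± 2.2 CPM, and the 6 library values of these clusters did not overlap.

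Osmr, the chain that gives OSM its own receptor, was high in glia and vessels and near 0 in neurons. Pericytes had 334.8 ± 159.8 CPM, endothelial cells 179.1 ± 53.6, Muller glia 176.7 ± 27.8 and astrocytes 107.6 ± 40.6, and these types overlapped. Every one of their library values lay above the highest value of rods (8.9 ± 4 CPM), microglia (5.6), cones (3.2), BC (2), AC (1.3), RGC (0.9) and HC (0.3). The Muller glia level was 19.9 times the rod level, and 4330 of the 5189 Osmr UMIs of all retained nuclei lay in Muller glia. At 1000 UMIs a nucleus, 29.1% of pericytes (20.8 to 38.5%), 14.5% of Muller glia (13.6 to 15.5%), 14.4% of endothelial cells (10 to 19.8%) and 8.3% of astrocytes (5.39 to 12.1%) had an Osmr UMI. The share was 0.673% in rods (0.53 to 0.841%) and 0 of 484 in HC, which allows a share of up to 0.62%. In rods Osmr was at 5.02% of its Muller glia level, where 9 Muller markers had a median of 12.9%, with 2 of 9 below Osmr, and the part of free RNA in the rod value was not tested. In cones, BC, AC, HC and RGC it was below all 9 markers.

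Cntfr, the chain that recognises CNTF and CLCF1, was highest in Muller glia at 54.1 ± 7 CPM. AC followed at 21.5 ± 2 CPM, apart from both neighbours in the order, and BC (14.8) and RGC (13) overlapped. The Muller glia level was 2.52 times the AC level. Rods, which led for Lifr, had 7 CPM of Cntfr, or 13% of the Muller glia level beside a median of 12.9% for Muller markers. In AC it stood at 39.6% of the Muller glia level and in RGC at 24.1%, above all 9 markers in each, and in BC at 27.4%, above 8 of 9. At equal depth 5.42% of Muller glia (4.83 to 6.06%) and 2.17% of AC (1.91 to 2.45%) had a Cntfr UMI.

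Within AC and BC, Cntfr was also uneven between clusters. AC cluster 16 (848 nuclei, leading genes Esr1, Spink13, Fgfr4 and Ebf3) had 78.3 ± 9.1 CPM, a mean above that of Muller glia as a whole, and AC cluster 27 (402 nuclei, led by Slc17a8) had 57.8 ± 7.2 CPM. BC cluster 15 (987 nuclei, with 3 of 5 markers of ON bipolar cells) had 51.4 ± 9.2 CPM. The lowest AC cluster had 2.9 CPM and the lowest BC cluster 2.2 CPM. BC cluster 12 had the second highest Cntfr among BC clusters (41 ± 6.2 CPM) and the lowest Lifr, the chain CNTFR works with (6.45 ± 2.34 CPM).

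Il6ra, the IL-6 binding chain, was a microglial gene in these nuclei. Microglia had 216.7, 275.6 and 213.5 CPM in saline and 297.6, 241.6 and 184.7 CPM in IL-27 libraries, 29 times the Muller glia level. Endothelial cells followed at 40.9 ± 31.2 CPM (25 UMIs), and Muller glia had 8.2 ± 4.1 CPM. The other types were lower, with 0 UMIs in HC. At 1000 UMIs a nucleus 21.2% of microglia (19.1 to 23.4%) and 0.855% of Muller glia (0.626 to 1.14%) had a UMI. Il6ra in Muller glia stood at 3.44% of its microglial level and microglial markers at a median of 3.13%, 7 of 9 of them below Il6ra.

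Il11ra1, the IL-11 binding chain, was nearly flat. Its mean ran from 16.7 CPM in HC to 31.2 CPM in cones, and the cone level was 1.36 times that of Muller glia. AC cluster 10, which carried 3 of 4 markers of AII amacrine cells, had 42.4 ± 4.2 CPM. Near-identical copies of this gene exist in the mouse genome, so reads could be split among them and these levels are uncertain.

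The ligands gave few UMIs, 281 for Lif, 1485 for Cntf and 522 for Clcf1 over all retained nuclei. Lif, the injury-induced cytokine, was mainly a Muller glia transcript, with 241 of these UMIs there. The Muller glia level of 10 ± 4.7 CPM was 10.9 times that of rods (0.9 ± 0.3 CPM, 21 UMIs), and HC, astrocytes, endothelial cells and pericytes had 0 UMIs. In rods Lif was at 9.2% of its Muller glia level, below the 12.9% median of Muller markers.

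Lif UMIs were seen in few Muller nuclei, and 114 of these nuclei held only 1 each. Of 5417 Muller nuclei, 141 had a Lif UMI, 27 of them had more than 1, and the 10 nuclei with at least 4 held 87 of the 241 UMIs. The share of Muller nuclei with a Lif UMI was 2.01, 2.47 and 3.17% in saline and 2.99, 2.75 and 2.44% in IL-27 libraries. The Lif level was 4.5, 9.4 and 18.8 CPM in saline and 8.6, 10.6 and 8.3 CPM in IL-27 libraries. A single nucleus in saline replicate 6 held 21 UMIs, and without the nuclei of 4 or more UMIs the levels were 4.49, 5.93 and 9.03 CPM in saline and 6.87, 6 and 5.65 CPM in IL-27 libraries. Muller nuclei with a Lif UMI had 273.6 ± 89.2 CPM of Osmr and 301.2 ± 79 CPM of Stat3, against 173.5 ± 26 and 208.2 ± 17.6 CPM in the nuclei without one. Lifr (36.5 ± 25.5 against 45.2 ± 3.6 CPM) and Socs3 (19.4 ± 13.2 against 20.4 ± 6.8 CPM) were not higher in them. Their median depth was 4941 against 4296 UMIs. Muller clusters 1 and 4, described below, held 140 and 37 of the Lif UMIs. These clusters also had the highest means of Osmr and of Stat3 (246.9 CPM in cluster 1 and 341 CPM in cluster 4). The parts of depth and of cluster in these values were not tested.

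Cntf, a neuroprotective cytokine long studied in the retina, was spread over glia and photoreceptors. Astrocytes had 18.4 ± 7.3 CPM (21 UMIs), rods 15.3 ± 2, Muller glia 10.8 ± 2.2, microglia 9.7 ± 5 and cones 8.6 CPM. BC (5.7), AC (4.4) and RGC (3.3) were lower, and the rod level was 3.52 times that of AC. At 1000 UMIs a nucleus a Cntf UMI was found in 1.57% of rods (1.35 to 1.81%), 1.04% of Muller glia (0.787 to 1.35%) and 0.531% of AC (0.408 to 0.681%). In Muller glia Cntf reached 70.7% of its rod level, above all 7 rod markers. Cntf lies next to Zfp91, so counts of it could include reads from that gene.

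Clcf1, the second ligand of CNTFR, was shared by Muller glia at 11.3 ± 1.7 CPM and microglia at 10.4 ± 6.3 CPM (37 UMIs). The Muller glia level was 6.61 times the AC level of 1.7 CPM (4.02 times by thinned shares and 11 times at clustering resolution 0.5), and HC and endothelial cells had 0 UMIs. At resolution 0.5 the nuclei named Muller glia took in a cluster of 430 that shared leading genes with AC cluster 8. AC clusters 27 and 8 had 12.1 ± 6.8 and 9.5 ± 2.7 CPM, so within AC the gene lay in few clusters, 1 of which was also high in Cntfr.

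Nuclei with UMIs of every chain of a receptor were counted. The share that the separate levels of the genes would give was not computed. Counts here and for the CNTF receptor below therefore do not show whether chains were found together more often than that. With nuclei thinned to 1000 UMIs, UMIs of both Osmr and Il6st were found in 76 of 5383 Muller glia (1.41%, 1.11 to 1.76%), 6 of 215 endothelial cells (2.79%) and 5 of 110 pericytes (4.55%). They were found together in 4 of 11295 rods (0.035%) and in no AC, HC, RGC or cone. Lifr and Il6st were found together in 118 rods (1.05%, 0.865 to 1.25%), 17 cones (0.519%), 34 Muller glia (0.632%) and 13 AC (0.111%). Il6ra and Il6st were found together in 29 of 1466 microglia (1.98%, 1.33 to 2.83%) and 6 Muller glia (0.111%). Il11ra1 and Il6st were found together in at most 0.465% of nuclei of a type. Il27ra and Il6st were found together in 0 nuclei at this depth, and before thinning in 1 microglial nucleus, 2 endothelial nuclei, 1 AC and 1 RGC. At 1000 UMIs Il27ra UMIs were seen in 0.477% of microglia and 0.465% of endothelial cells.

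The full CNTF receptor needs 3 chains, and at 1000 UMIs only 1 Muller nucleus and 1 rod had all of Cntfr, Lifr and Il6st. Before thinning they were found together in 115 Muller nuclei (2.12%, 1.76 to 2.54%), 16 RGC (0.785%) and 73 AC (0.624%), against 3 of 14998 rods (0.02%). The median depth of rods was 1285 UMIs, against 4321 in Muller glia, so these unthinned shares cannot be set against each other. At these depths, absence of a second chain from a nucleus does not show that the cell lacks it.

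The genes whose levels ran most like a member over the 11 cell types were taken from 15124 genes by Pearson correlation of mean log2(CPM + 1), as a description over types that share libraries. Lamb2 ran closest to Osmr (r = 0.99), Tox closest to Cntfr (0.96), Gadd45a closest to Lifr (0.96), Nostrin closest to Il6st (0.97) and AU020206 closest to Il6ra (0.99). Osmr and Il6st had r = 0.77, whereas Lifr and Osmr had r = 0.43.

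IL-27 and saline libraries were compared with edgeR's quasi-likelihood test in each cell type. Of the 99 pairs of a gene and a cell type, 51 passed the filter on low counts, and 0 passed an adjusted p of 0.05, with 4 at an unadjusted p under 0.05. DESeq2 also called 0, but the share of all genes that it called was not computed. By edgeR, 9.21% of all genes tested in Muller glia, where 2 of the 4 pairs lie, had an unadjusted p under 0.05. This share was 3.33% in microglia and 3.36% in endothelial cells. The test called few genes of any kind. The share of all tested genes called was 0.0284% in Muller glia, 0.0111% in microglia, 0.00736% in rods, 0.00592% in AC, and 0% in cones, BC, HC, RGC, astrocytes, endothelial cells, pericytes and the sum of all nuclei. The calls in any direction were Prss56 in rods, AC and Muller glia, Adamts19, Atp2b4 and Gm39075 in Muller glia and Cntn5 in microglia, named here after their values were seen. Prss56 was among the leading genes of a Muller cluster, and the part of free RNA in its rod and AC values was not tested. All 9 genes passed the filter in Muller glia, 7 in AC, 6 in rods and BC, 5 in RGC, 4 in cones and microglia, 3 in HC and endothelial cells and 2 in astrocytes and pericytes.

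**Figure D3:**
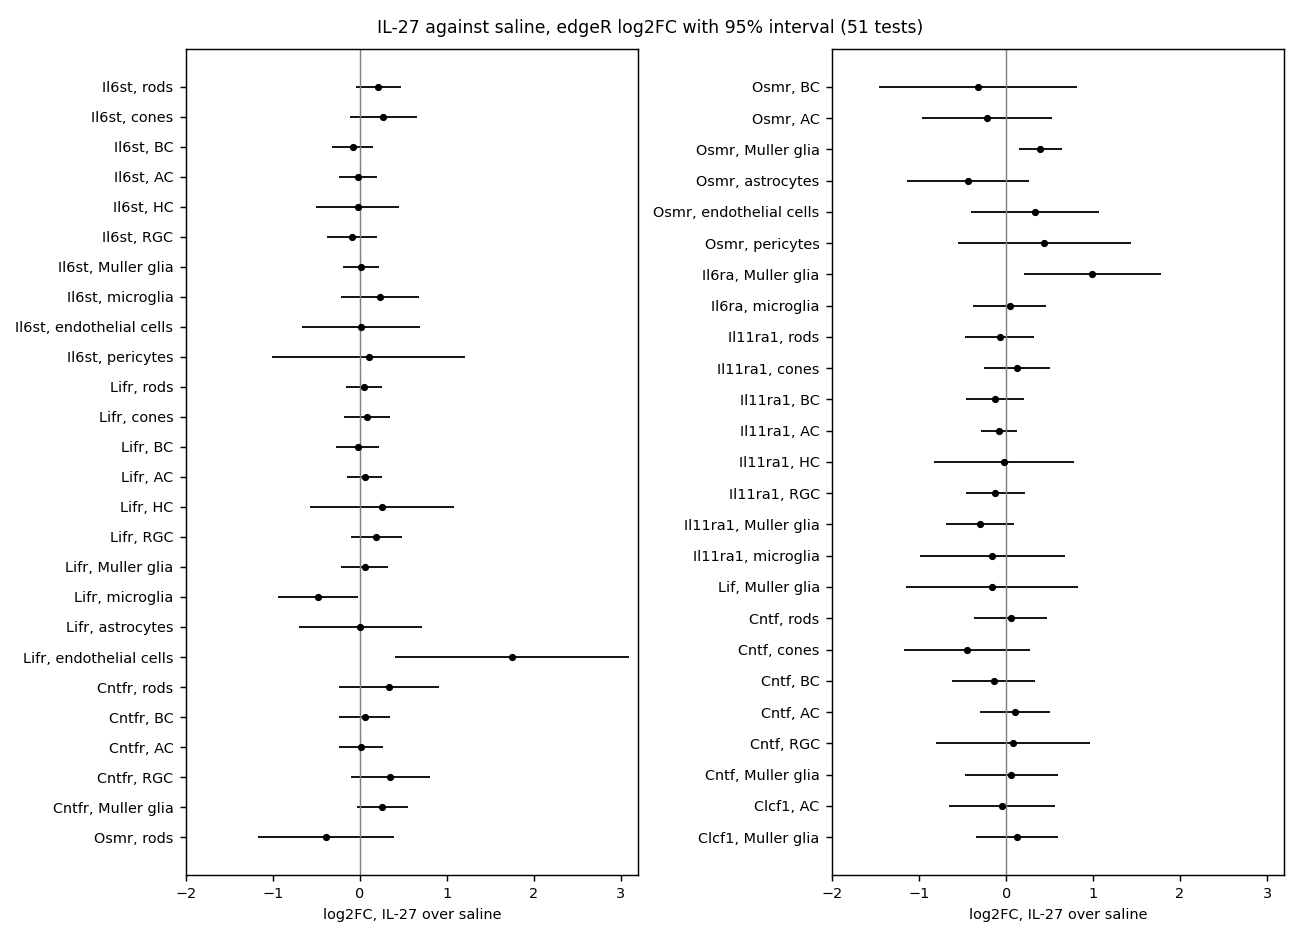
log2FC of IL-27 over saline (horizontal axis) with its 95% interval from edgeR for the 51 tested pairs of gene and cell type. The interval excludes 0 for Osmr and Il6ra in Muller glia and for Lifr in microglia and endothelial cells, and no pair passed the adjusted threshold.

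Osmr in Muller glia had the smallest p of the 51. Its level was 145.3, 156 and 161.6 CPM in the saline libraries and 185.8, 220.7 and 190.7 CPM in the IL-27 libraries. Every IL-27 library lay above every saline library, as was the case for 5.6% of the genes tested in Muller glia. The log2FC was 0.39 (95% interval 0.15 to 0.64, SE 0.11), with an unadjusted p of 0.00555 and an edgeR adjusted p of 0.295. The summed level of 9 endothelial markers in Muller glia was 995.6 to 1272 CPM in saline and 1233 to 1545 CPM in IL-27 libraries, that of 8 pericyte markers 89 to 101.4 and 81.3 to 99.5 CPM, and the part of these in the Osmr values was not tested. In the other types that passed the filter, the log2FC of Osmr ran from -0.44 in astrocytes to 0.44 in pericytes. Without IL-27 replicate 10 the Muller glia log2FC was 0.44 with an edgeR adjusted p of 0.0461, in a fit that called 3.02% of all genes.

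The Muller glia nuclei held a cluster that was more frequent in saline, and Osmr was low in it. This cluster, led by Frmpd4, Mecom, Fbln1 and Reln, made up 20.2, 21.8 and 11.4% of the Muller nuclei in saline and 1.86, 1.08 and 12.6% in IL-27 libraries. When all nuclei were clustered, a cluster of 662 nuclei with like library counts was led by Fbln1, Slc6a13, Fbn2, Optc and Col18a1. It carried 8 of 9 Muller markers, with 0 of them among its leading genes. Whether the nuclei of the saline-enriched cluster are Muller glia was not tested. In the 4 libraries with at least 20 nuclei of the saline-enriched cluster, Osmr was at 28.3 ± 9.9 CPM in it. The other Muller nuclei of the same libraries had 185.3 ± 16.9 CPM. With the cluster left out, the log2FC of Osmr was 0.21 (-0.02 to 0.43) with an edgeR adjusted p of 0.949, and the levels of the groups (177.6 ± 8.5 and 205 ± 18.3 CPM) overlapped, while 4.99% of all genes did not overlap with IL-27 above saline. Cntfr (11.4 ± 6.9 against 57.2 ± 4.2 CPM), Lifr (24.9 ± 2.5 against 48.2 ± 3.3 CPM) and Il6st (86.5 ± 11.8 against 110.6 ± 4 CPM) were also lower in the cluster in 4 of 4 libraries. Lif was not found in it at all. Of the 9 genes Il11ra1 alone was higher there in 4 of 4 libraries, at 36.8 ± 4.9 against 23.6 ± 2.2 CPM.

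Il6ra in Muller glia was 3.9, 8.6 and 4 CPM in saline and 8.3, 9.3 and 15.1 CPM in IL-27 libraries, with a log2FC of 0.99 (0.2 to 1.78) and an edgeR adjusted p of 0.413. Saline replicate 2 lay above IL-27 replicate 4, so the groups overlapped. The sum of 9 microglial markers in Muller glia was 197.8 to 218.6 CPM in saline and 207.2 to 250.4 CPM in IL-27 libraries, and its part in the Il6ra values was not tested. Cntfr was 46.1, 46.5 and 56.8 against 64.3, 57.4 and 53.7 CPM (log2FC 0.26, -0.04 to 0.55), and 0.074 with the saline-enriched cluster left out. Il11ra1 had a log2FC of -0.3 with an edgeR adjusted p of 0.689. The log2FC was 0.015 for Il6st, 0.054 for Lifr, 0.061 for Cntf and 0.13 for Clcf1. The median of the 9 genes was 0.061, beside 0.0055 for all genes tested. Lif had -0.16 (-1.15 to 0.82), an interval that holds both directions, and 0.45 without saline replicate 6.

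**Figure D4:**
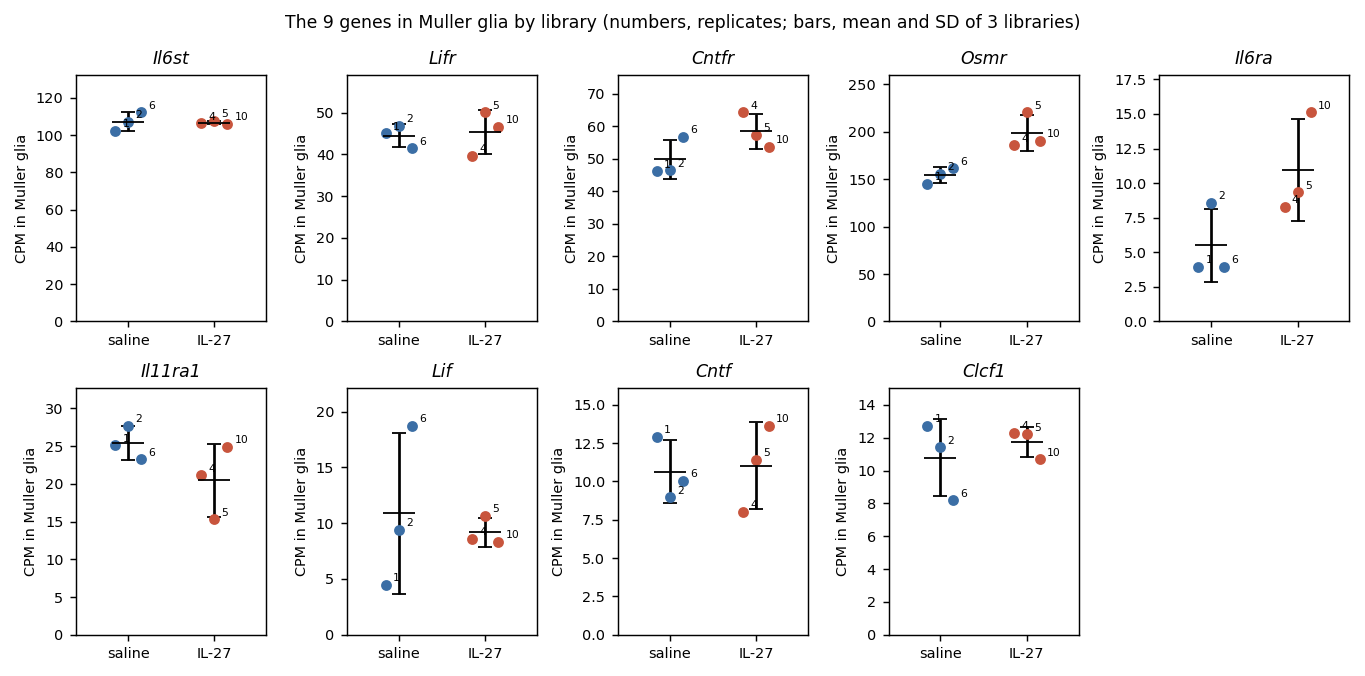
Level of the 9 genes in Muller glia in CPM (linear axes from 0), with 1 point per library labelled by its replicate number and bars at mean and SD of 3 libraries. Osmr is the panel in which the saline points (145.3 to 161.6 CPM) and the IL-27 points (185.8 to 220.7 CPM) do not overlap.

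Muller glia fell into 5 clusters, and the ligand and receptor genes differed between them. Cluster 0 was led by Trhde and Syt10, cluster 1 by Gpnmb, Pvt1, Neat1 and Nupr1 with Gfap at 98.9 ± 12.4 CPM, cluster 2 by Adamts19 and Brinp1, cluster 3 was the saline-enriched cluster, and cluster 4 (152 nuclei) was led by Cxcl10, Ccl2 and other interferon and chemokine genes. Osmr was 362.3 ± 98.3 CPM in cluster 4 (4 libraries with at least 20 nuclei), 237 ± 30.4 in cluster 1, 173.3 ± 23 in cluster 0 and 147.9 ± 22.2 in cluster 2. Lif was at 47 ± 36.5 CPM in cluster 4 (29.6 ± 13.4 CPM without IL-27 replicate 5, which stood at 99.3 CPM) and 23 ± 19.2 CPM in cluster 1, against 4.6 ± 2.8 CPM in cluster 0, and cluster 1 held 140 of the 241 UMIs. Il6ra was at 22.4 ± 16.6 CPM in cluster 4 and 18.8 ± 8.4 CPM in cluster 1, and cluster 1 held 129 of its 195 Muller UMIs. Cntfr was at 65 ± 10.9, 53.4 ± 8.5 and 66.3 ± 13.1 CPM in clusters 0, 1 and 2, which overlapped, and at 11.4 ± 6.9 CPM in cluster 3 and 16.8 ± 12.2 CPM in cluster 4. Clcf1 was 16.1 ± 4.4 CPM in cluster 1 and 10.2 ± 2.3 CPM in cluster 0, which overlapped. None of the 9 genes was used to form the clusters.

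Cluster 1 made up 20.1, 23.8 and 20.5% of the Muller nuclei in saline and 18.6, 37.6 and 42.4% in IL-27 libraries. Within cluster 0, Osmr was 158.4, 149.7 and 160.1 CPM in saline and 172.7, 186.6 and 212.2 CPM in IL-27 libraries, without overlap, as for 5.13% of the genes in that cluster with IL-27 above saline. Within cluster 1 it was 210, 238.1 and 202.7 against 273.8, 271.8 and 225.4 CPM, and within cluster 2 it was 128.4, 153.5 and 187.4 against 152.8, 132.8 and 132.3 CPM, both with overlap. In clusters 1 and 2 alike 4.94% of genes lay above saline without overlap.

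**Figure D5:**
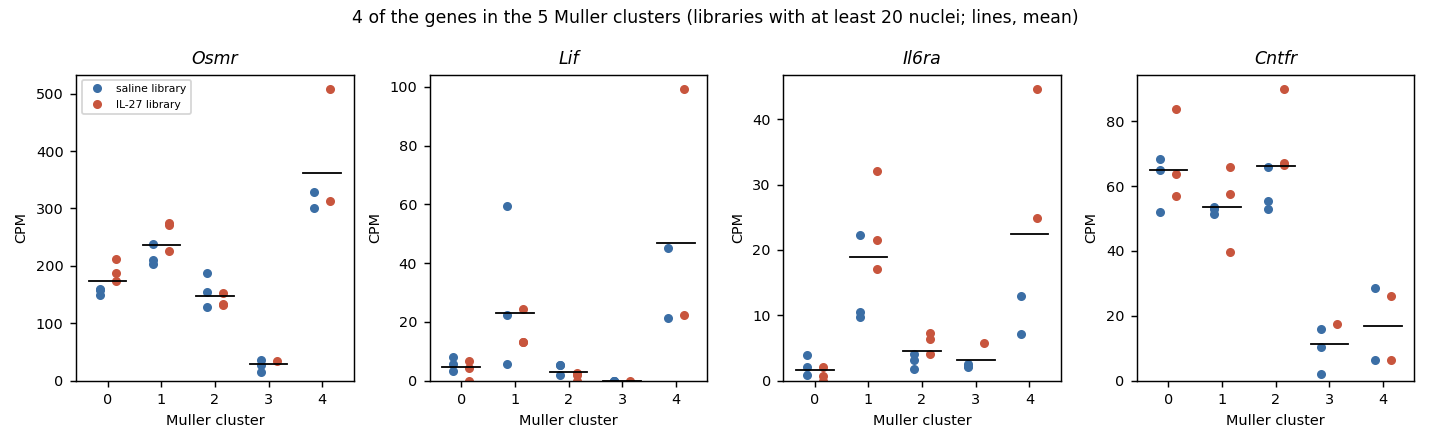
Level in CPM (linear axes from 0) of Osmr, Lif, Il6ra and Cntfr in the 5 Muller clusters, with 1 point per library that had at least 20 nuclei in the cluster and a line at their mean. Osmr is lowest in cluster 3 at 28.3 CPM and highest in cluster 4 at 362.3 CPM, Lif and Il6ra are highest in clusters 1 and 4, and Cntfr is lowest in clusters 3 and 4.

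Among the 51 tested pairs, Lifr in microglia and in endothelial cells were the others with groups that did not overlap. In microglia it was 76, 61.6 and 87.8 CPM in saline and 57.3, 50.5 and 54.1 CPM in IL-27 libraries, with a log2FC of -0.48 (-0.94 to -0.03, SE 0.21), an unadjusted p of 0.0394 and an edgeR adjusted p of 0.9999. All IL-27 values lay below all saline values, as for 3.75% of the genes tested in microglia. The summed level of 7 rod markers in microglia was 760.2 to 1017 CPM in saline and 406.3 to 1162 CPM in IL-27 libraries, and its part in the Lifr values was not tested. In endothelial cells it was 21.2, 12.7 and 77.3 CPM in saline and 96.8, 114.2 and 226.4 CPM in IL-27 libraries, on 64 UMIs in all, with a log2FC of 1.75 (0.41 to 3.09, SE 0.61), an unadjusted p of 0.0142 and an edgeR adjusted p of 0.999. All IL-27 values lay above all saline values, as for 4.25% of the genes tested there. The summed level of 8 pericyte markers in endothelial cells was 38.2 to 912 CPM in saline and 349 to 1602 CPM in IL-27 libraries, and its part in the Lifr values was not tested. In rods, the type richest in Lifr, the log2FC was 0.042 (-0.17 to 0.25), and in cones it was 0.078 (-0.19 to 0.34). Il6st in rods was at 58.8 ± 6.8 CPM in saline and 68.4 ± 7.8 CPM in IL-27 libraries, with a log2FC of 0.21 (-0.045 to 0.47) and overlapping groups. Cntfr in AC had a log2FC of 0.013 (-0.24 to 0.27), Il6ra in microglia 0.042 (-0.38 to 0.46) and Cntf in rods 0.051 (-0.37 to 0.47).

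The 48 pairs below the filter on counts were compared by their share of nuclei with a UMI at 1000 UMIs, with a two-sided exact permutation test whose smallest p with 3 against 3 libraries is 0.1. That smallest p was reached for Il6ra in rods (6 nuclei) and in BC (7 nuclei), with shares higher in IL-27 by 0.063 and 0.059 percentage points, and free RNA was not separated from expression there. How many of all genes below the filter reach this p was not computed, so no result is read from these pairs. Clcf1 in microglia, the ligand with the most nuclei in this group (12), had a share of 1.68% in saline and 0.269% in IL-27 libraries, with an exact permutation p of 0.2. By level, on 37 UMIs, it was at 12 ± 5.4 CPM in saline and 8.76 ± 7.93 CPM in IL-27 libraries, with overlap. Cntfr in cones (40 UMIs) was at 6.01 ± 1.01 CPM in saline and 2.48 ± 1.17 CPM in IL-27 libraries, without overlap. Cntf in astrocytes (21 UMIs) was at 23.5 ± 6.9 and 13.3 ± 3 CPM, without overlap. Il6ra in BC (26 UMIs) was at 0.36 ± 0.027 CPM in saline and 0.67 ± 0.2 CPM in IL-27 libraries, also without overlap. The share of all genes below the filter without overlap was not computed, so no result is read from these levels either.

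The pathway around these genes was taken as a list of 45 other gp130 family ligands and receptors, Jak and Stat genes, feedback genes and response genes. In Muller glia 33 of them were tested, 0 passed the adjusted threshold with edgeR or DESeq2, with an unadjusted p under 0.05 for 5 genes (2 up and 3 down). The median log2FC of the 33 was 0.078 against 0.0055 for all genes tested, of which 9.21% had an unadjusted p under 0.05. In the other types 5 to 35 of the list were tested and 0 were called with either tool. For DESeq2 the share of all genes called was not computed.

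Among the ligands of the list, Osm was found almost only in microglia, with 26 of 29 UMIs and 6.9 ± 3.8 CPM. Il6 had 2 UMIs in microglia, Il11 lay at or below 0.75 CPM outside pericytes (1 UMI there), and Ebi3, which encodes a subunit of IL-27, had 13.7 ± 8.1 CPM in microglia. Il27ra had 13 UMIs in microglia, 4 in endothelial cells and 0 in Muller glia. These levels count transcripts in nuclei and not protein.

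Of the kinases and transcription factors, Jak1 was at 252 ± 28 CPM in microglia and 110.6 ± 3.9 CPM in Muller glia, and Stat3 was at 298.5 ± 52.9 CPM in rods and 374.1 ± 74.3 CPM in astrocytes. In Muller glia Stat3 had a log2FC of 0.059 and Jak1 of 0.043. None of the feedback and response genes passed the threshold there. Socs3, the inhibitor induced by gp130, had 0.49 (-0.09 to 1.08), Cebpd had 0.41 (0.03 to 0.79), Bcl3 had 0.41, Gfap had 0.29 and the survival factor Fgf2 had 0.22. In the saline-enriched cluster Socs3 (11.5 against 20.4 CPM) and Gfap (18.9 against 53.6 CPM) were lower than in other Muller nuclei in 4 of 4 libraries. Cebpd, Bcl3 and Fgf2 had their lowest Muller cluster means there (59.4, 7.8 and 12.1 CPM). Over the alternatives the Muller glia log2FC ran from 0.15 to 0.4 for Gfap, 0.25 to 0.53 for Cebpd and 0.085 to 0.36 for Fgf2. That of Socs3 ran from 0.21 to 0.75 and that of Bcl3 from 0.23 to 0.55. Fgf2 was highest in rods at 254.1 ± 58 CPM, as was Edn2, a signal from injured photoreceptors, at 78.1 ± 11.1 CPM.

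Some other genes of the list stood out only after their values were seen. Il31ra, the receptor chain for IL-31, averaged 9.7 CPM in saline and 3.6 CPM in IL-27 Muller glia (log2FC -1.4, -2.14 to -0.66, edgeR adjusted p 0.191), and it was at 33.3 ± 16.8 CPM in the saline-enriched cluster against 3.26 ± 1.44 CPM in the other Muller nuclei of 4 libraries. With that cluster left out the log2FC was -0.27. Ctf1 (cardiotrophin) had a log2FC of -1.25 in Muller glia with an edgeR adjusted p of 0.189, and it too was higher in the cluster in 4 of 4 libraries. In RGC, Junb had a log2FC of -1.21 with an edgeR adjusted p of 0.856. Without the filter on low counts Il31ra in Muller glia and Junb and Fos in RGC passed the adjusted threshold, in fits that called 1.33 and 0.067% of all genes. The same fit in HC called 0.126% of all genes.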

How the data were processed

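Nuclei from frozen retinas were profiled by 10x single-nucleus sequencing. The authors counted UMIs with Cell Ranger against the 10x mouse reference (version 9.0.1 per the labels' processing notes, 8.0.1 per the file headers) and used Seurat 5.2.1. The deposited values are whole UMI counts per gene and called barcode, without normalization. The genome build is not given in the sources used here, so positions are those of GENCODE M21 on GRCm38, and promoter sequences are from RefSeq.

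A nucleus needed over 500 UMIs, 200 or more genes and a mitochondrial share below 5%. The nuclei with the top Scrublet scores (scanpy 1.11.5, expected rate 8%, lowered for doublets of like type) were dropped. Clustering (2000 variable genes, 25 components, 20 neighbours, Louvain resolution 0.25, igraph 0.11.9) left out the 9 genes and the pathway list, and clusters were named from at least 3 markers. Per library and cell type, UMIs were summed over nuclei within 2 scaled median deviations of the median log2 depth. Genes passing filterByExpr (minimum 10) were fitted with edgeR 4.0.16 in R 4.3.3, with TMM factors, the quasi-likelihood test and Benjamini-Hochberg adjustment within a cell type at 0.05. The fits were tested on simulated data. Alternatives were DESeq2 1.42.0, its size factors, no filter, all nuclei, doublets kept, resolution 0.5, high Xist as a covariate, Muller glia without the saline-enriched cluster, thinning to 500 UMIs and each library left out. Comparisons within single Muller clusters, cluster levels with each library left out and the direct test of Lifr between endothelial cells and microglia were chosen after seeing the data.

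The genes named are the 9 genes in every type, 15 listed pathway genes and any pathway gene past the threshold, and the genes most like each member that had at least 200 UMIs. Some of the listed pathway genes are not reported here. Members and lists were chosen with earlier results of these data known. A count of 0 allows a share of up to 3 counts of the total.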

Additional observations from a re-analysis of the deposited data

Results flagged for a closer look

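The Lifr differences between IL-27 and saline libraries had opposite signs in endothelial cells and microglia. Its log2FC of IL-27 over saline was 1.75 in endothelial cells (groups without overlap, as for 4.25% of genes higher in IL-27 there) and -0.48 in microglia (as for 3.75% of genes lower in IL-27), and neither passed the adjusted threshold with edgeR. The log2 ratio of the endothelial to the microglial level per library was -1.43 ± 1.1 (SD, n = 3) in saline and 1.33 ± 0.67 (SD, n = 3) in IL-27 libraries, which differ by 2.77. A two-sided exact permutation test gave p = 0.1, and with 3 libraries in each group no lower value is possible. The ratio was higher in 3 of 3 IL-27 libraries than in any saline library. Because the groups already did not overlap in either type, with opposite signs, the ratio had to separate them. This p and the separation were therefore fixed by the choice of the pair and add nothing to the values of each type. The endothelial level rested on 64 UMIs, and this pair was compared after its values were seen.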

How the results depend on the processing

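No paired analysis was possible because saline and IL-27 libraries share no replicate number. Counts of called members stayed at 0 in every cell type under DESeq2, its size factors, no filter, all nuclei, doublets kept, resolution 0.5 and Xist as a covariate, except in Muller glia with 1 library left out (0 to 1 called, the 1 being Osmr without IL-27 replicate 10). The share of all genes called was computed for few of these alternatives. They were no filter in Muller glia, HC and RGC, and Muller glia without IL-27 replicate 10. Without the filter on low counts the pathway list had 1 call in Muller glia, 1 in HC and 2 in RGC (Junb and Fos). The log2FC of Osmr in Muller glia ran from 0.21 to 0.44 over its alternatives, that of Lifr in microglia from -0.59 to -0.34, and that of Lifr in endothelial cells from 1.07 to 3.01. Values near 0 changed sign with 1 library left out. These were Il6st (-0.018 to 0.051), Lifr (-0.036 to 0.13), Lif (-0.57 to 0.45), Cntf (-0.092 to 0.24), Clcf1 (-0.017 to 0.27) and Stat3 (-0.065 to 0.13) in Muller glia, Lifr in rods (-0.029 to 0.075) and Il6ra in microglia (-0.13 to 0.21). Without the saline-enriched cluster Il6st (-0.058), Lifr (-0.042) and Clcf1 (-0.033) were negative in Muller glia, and at resolution 0.5 Il6st was -0.028. The rod to Muller glia ratio of Lifr was 3.4 by thinned shares, and the Muller glia to AC ratio of Clcf1 was 4.02 by thinned shares and 11 at resolution 0.5. Without thinning, the IL-27 minus saline difference in the share of nuclei was -2.26 percentage points for Il6ra in endothelial cells and -3.95 for Cntf in astrocytes. The cause of these changes was not tested. Depth left 48 of the 99 pairs of gene and cell type below the filter.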
